A study of Homo sapiens with 12 samples.

Results

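The genes described here are 33 genes of the G1/S transition and of DNA replication, measured in differentiated Caco-2 cells exposed to silver nanoparticles or silver ions. A gene was included when the platform annotation mapped at least 1 probe set to its symbol and to no other, and it was represented by the probe set of that kind with the highest mean over the 12 arrays. All 33 genes listed were measured, among 19775 genes in all. The rule rests on gene names and, for the choice of probe set, on brightness, while the list itself was drawn up with earlier results of these data known.

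Caco-2, a line from a human colon carcinoma, differentiates toward absorptive enterocytes when left confluent, and each sample was hybridised to 1 3′ expression array. Cells at passage 22, kept for 21 days past confluence, spent 24 h with the agent in medium with insulin, transferrin and selenium. The 4 groups of 3 arrays were silver ions given as silver nitrate (AgNO3) at 0.5 µg/mL; medium alone; surfactant-coated silver nanoparticles (AgPURE) at 2.5 µg/mL; and the same nanoparticles at 25 µg/mL. There was no surfactant-only group, and effects of surfactant and silver cannot be told apart at either nanoparticle dose. Whether the arrays within a group stem from separate cultures is not stated in the labels, and the p-values thus measure only array-to-array spread, which may be technical.

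Before DNA is copied, the origin recognition complex with CDC6 and CDT1 loads the ring of MCM2 to MCM7 onto origins in G1, a step called licensing. At the start of S phase, MCM10, CDC45 and the GINS complex turn the loaded ring into an active helicase, and polymerases, the PCNA clamp with its RFC loader, and the enzymes that join Okazaki fragments copy the strands. Many of these genes are transcribed at the G1/S transition by E2F factors, which cyclin E and its kinase keep free of the RB protein. In the intestinal epithelium these genes are used by dividing crypt cells and are low in differentiated enterocytes. In the Caco-2 cells in medium alone, all of them lay above the median of all probe-set values (below). In every medium array, 30 of 30 G2/M and mitosis genes and 40 of 41 other replication factors did so too. Each gene stood by its brightest probe set, while the median covers dim probe sets as well. The share of all genes above it is not given, so this cannot show that the replication genes were unusually high.

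The deposited values are on a log2 scale, with robust multi-array averaging (RMA) named in the submitters' processing notes, and every level below is on that scale. The arrays at 25 µg/mL stood apart: across probe sets they correlated with medium arrays at r between 0.978 and 0.981, against 0.992 to 0.996 between arrays of 1 group (probe sets are no independent replicates). At 25 µg/mL the control probe sets outside the gene measurements were also higher than in medium, by 0.61 for the 24 poly-A controls and by 0.43 for the 18 hybridization controls. Scaling every array on these controls moved the median difference of all genes between 25 µg/mL and medium to -0.62 (poly-A) or -0.44 (hybridization), against -0.011 as deposited. The poly-A controls averaged 6.21, 5.56 and 6.31 in the 3 arrays at 25 µg/mL, and scaling on them carries this spread into every gene. A call lost under poly-A scaling can thus reflect a wider spread as well as a smaller difference. Rises and falls are reported relative to the normalization by the authors, and members that turn to the other side of 0 under either scaling are named with each role. Of 12 enterocyte markers, 8 lay above the median of all probe-set values, 4.75, in all 3 medium arrays (CDX2, VIL1, ALPI, FABP1, SLC15A1, DPP4, APOA1 and APOA4), and 4 lay below it (SI, FABP2, ANPEP and KRT20). Among them were APOA1, an apolipoprotein (11.51, 11.91 and 12.29), VIL1, which encodes the microvillus protein villin (10.28, 10.45 and 10.40), and the brush border enzyme gene SI (3.35, 3.60 and 3.72).

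The promoters are shown because the genes are grouped by their control at G1/S. RefSeq promoter windows (build GRCh38.p14, 250 bases before and 50 bases from the transcription start) were matched by symbol for 29 of the 33 genes. The letters TTTCCCGC or TTTGGCGC, common forms of the E2F site, were searched on both strands; matches of both words can overlap, and a gene was counted 1 time however many it held. At least 1 window of 17 of the 29 genes (58.6%) held them, against 2.75% of all 27305 genes and 2.27% of all 35116 windows. The letters TTTGAA, the core of the cell cycle homology region of many mitotic promoters, were found for 1 of the 29 genes (RRM1), against 18.2% of all genes and 15.2% of all windows. A list of 30 G2/M and mitosis genes had the opposite make-up, with the E2F letters for 1 of 24 genes with a window (4.17%) and TTTGAA for 17 of 24 (70.8%). Among the genes that rose at 25 µg/mL (below), 11 of 19 with a window held the E2F letters (57.9%), and among the others 6 of 10 did (60.0%). A match is a description of the letters in this window. Other forms of the E2F site were not searched, so a gene without these letters may still hold such a site. The MCM10 and CDC6 stretches below also hold TTTGGCGG, left in small letters. It differs from a searched word in its last base and was not counted. The stretches below run from 170 bases before the start to 30 bases from it, 5′ to 3′ on the gene's strand, with E2F letters in capitals. They show MCM10 (the largest rise, without the searched letters), the 3 largest rises with these letters and a single window, GINS2 (a partner of GINS3 that did not pass the test) and TYMS (lower at 25 µg/mL).
MCM10, chr10:13161388-13161587, plus strand: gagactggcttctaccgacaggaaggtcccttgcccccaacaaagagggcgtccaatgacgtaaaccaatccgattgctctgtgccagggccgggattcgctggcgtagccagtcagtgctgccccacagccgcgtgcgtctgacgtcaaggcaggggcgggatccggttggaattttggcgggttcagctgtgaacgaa
GINS3, chr16:58392301-58392500, plus strand: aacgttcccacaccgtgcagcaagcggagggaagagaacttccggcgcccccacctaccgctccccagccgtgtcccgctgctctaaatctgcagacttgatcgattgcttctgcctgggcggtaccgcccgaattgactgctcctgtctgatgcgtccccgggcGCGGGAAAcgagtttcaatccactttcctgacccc
CDC6, chr17:40287709-40287908, plus strand: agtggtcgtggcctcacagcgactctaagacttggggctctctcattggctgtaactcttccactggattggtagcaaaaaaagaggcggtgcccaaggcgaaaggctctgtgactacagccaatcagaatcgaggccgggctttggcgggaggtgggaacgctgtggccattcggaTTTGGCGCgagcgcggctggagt
POLA1, chrX:24693748-24693947, plus strand: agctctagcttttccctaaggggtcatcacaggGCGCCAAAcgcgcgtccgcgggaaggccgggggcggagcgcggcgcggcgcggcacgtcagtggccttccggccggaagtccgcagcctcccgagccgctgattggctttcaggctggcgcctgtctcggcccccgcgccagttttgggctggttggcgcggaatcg
GINS2, chr16:85688925-85689124, minus strand: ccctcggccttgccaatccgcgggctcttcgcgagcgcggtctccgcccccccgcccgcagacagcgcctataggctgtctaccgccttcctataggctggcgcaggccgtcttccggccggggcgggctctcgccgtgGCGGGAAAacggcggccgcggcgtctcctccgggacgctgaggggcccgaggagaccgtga
TYMS, chr18:657483-657682, plus strand: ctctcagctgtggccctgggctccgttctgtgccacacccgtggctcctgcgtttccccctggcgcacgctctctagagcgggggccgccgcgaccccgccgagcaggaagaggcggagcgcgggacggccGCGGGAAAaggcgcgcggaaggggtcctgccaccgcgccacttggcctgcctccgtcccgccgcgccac

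At 25 µg/mL, 23 of the 33 genes were higher than in medium and 2 were lower at an adjusted p under 0.05 (limma, adjusted over all genes), and 8 did not pass the test. Over all 19775 genes, 14.1% were higher and 19.3% were lower by the same rule. The members' median log2 difference was 0.42, against -0.011 for all genes, and 30 of the 33 were above 0. All 3 arrays at 25 µg/mL lay above all 3 medium arrays for 25 members (19.8% of all genes) and below them for 3 (25.9% of all genes). Scaling on the poly-A controls left 1 member higher (MCM10) and 5 lower with a median of -0.19, and scaling on the hybridization controls left 6 higher and 4 lower with a median of -0.0054. Of all 19775 genes, 14260 were called under poly-A scaling and 13343 under hybridization scaling, not split by direction here. The medians over all genes were then -0.62 and -0.44. Of the 33 members, 20 turned from above 0 to below it under poly-A scaling and 14 under hybridization scaling. Each scaling moves every gene of an array by the same amount, so it cannot alter the distance of 0.43 between the members' median and that of all genes, and that distance is no check.

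**Figure D1:**
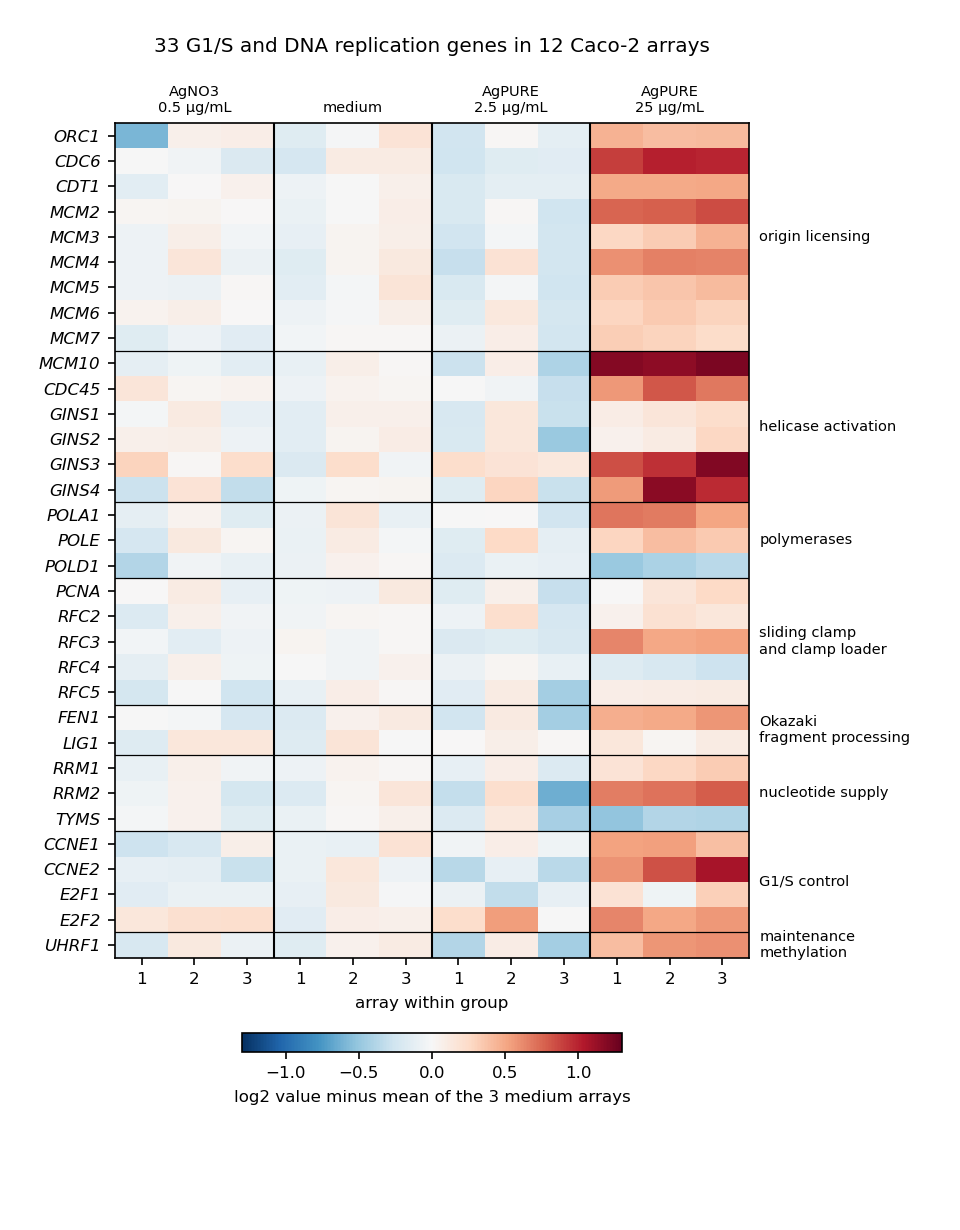
Log2 value of each of the 33 genes (rows, grouped by role) minus its mean in the 3 medium arrays, for the 12 arrays (columns, 3 per group); red is higher and blue lower on the scale below the map. As deposited, the 3 columns at 25 µg/mL are red for most rows and blue for POLD1, TYMS and RFC4; scaling on the control probe sets, not drawn, turns the members' median to -0.19 (poly-A) or -0.0054 (hybridization).

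All 9 licensing genes rose at 25 µg/mL relative to the authors' normalization, with a median log2 difference of 0.42. Under poly-A scaling none of the 9 was called higher and 6 turned: ORC1 (-0.19), CDT1 (-0.12), MCM3 (-0.26), MCM5 (-0.25), MCM6 (-0.31) and MCM7 (-0.33). Under hybridization scaling CDC6 and MCM2 were called higher, and 5 turned: ORC1 (-0.0054), MCM3 (-0.074), MCM5 (-0.061), MCM6 (-0.12) and MCM7 (-0.14). CDC6, the ATPase that brings the helicase to the origin complex, had 9.56, 9.68 and 9.66 at 25 µg/mL, against 8.45, 8.77 and 8.77 in medium. Every treated array was well above every medium array, and the rise was 1.96-fold (log2 0.97 ± 0.098 SE, adjusted p = 3.44e-06). MCM2, a subunit of the helicase ring, had 10.20, 10.22 and 10.30 at 25 µg/mL, against 9.36, 9.44 and 9.53 in medium. The groups did not overlap, and the rise was 1.74-fold (log2 0.80 ± 0.087 SE, adjusted p = 6.89e-06). CDT1, the loading factor that geminin inhibits, had 8.16, 8.17 and 8.18 at 25 µg/mL, against 7.61, 7.67 and 7.75 in medium. Its treated arrays were nearly equal to each other and above all medium arrays (1.41-fold, log2 0.49 ± 0.079 SE, adjusted p = 0.000189). A second, dimmer probe set of CDT1 did not pass the test and had a difference of -0.15, and with both averaged CDT1 differed by 0.17 and was not called.

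The other helicase subunits rose by less than MCM2, from 1.55-fold for MCM4 (log2 0.63) to 1.22-fold for MCM7 (log2 0.28), with MCM5 at 0.37, MCM3 at 0.35 and MCM6 at 0.31. For each of these 5 genes the 3 arrays at 25 µg/mL lay above the 3 medium arrays; differences between subunits were not tested. ORC1, an ATPase subunit of the origin complex, had 6.74, 6.68 and 6.69 at 25 µg/mL, against 6.12, 6.27 and 6.46 in medium. The groups did not overlap, but the medium arrays were spread, and the rise of 1.34-fold was close to the threshold (adjusted p = 0.0443). The call of ORC1 was lost without any 1 of the arrays at 25 µg/mL (0.40 without replicate 1, 0.43 without replicate 2 and 0.43 without replicate 3), without medium replicate 1 (0.34) or 2 (0.41), without replicate 3 at 2.5 µg/mL (0.42), and without moderation of the variances (0.42). The MCM6 call was lost without medium replicate 1 (0.27) or 2 (0.30) and without replicate 2 at 25 µg/mL (0.29), and that of MCM7 without medium replicate 1 (0.27) and without replicate 1 (0.27) or 2 (0.28) at 25 µg/mL. With its probe sets averaged, MCM6 differed by 0.19 and was not called.

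**Figure D2:**
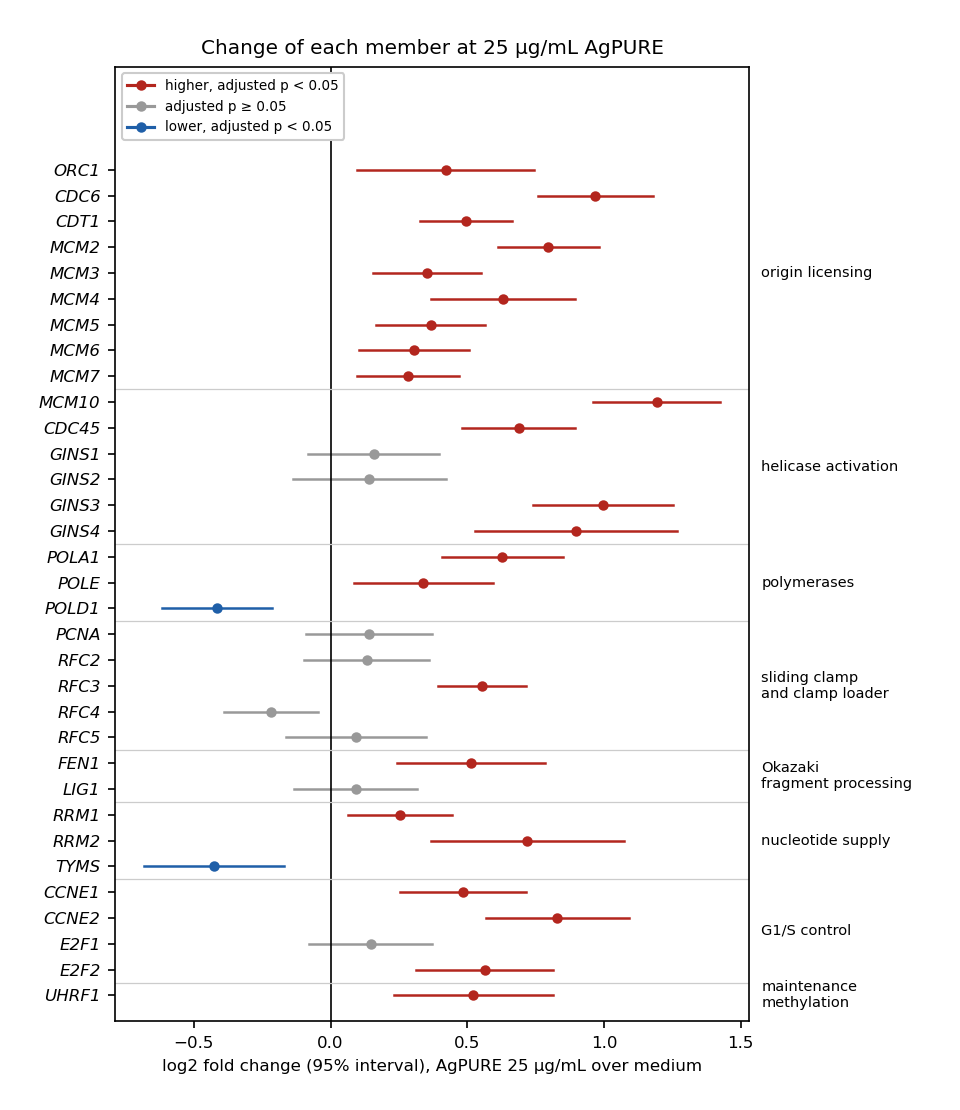
Log2 fold change of each member at 25 µg/mL AgPURE over medium (x axis, point) with its 95% interval (line, limma, n = 3 per group), by role; red is higher, blue lower and grey not past an adjusted p of 0.05. As deposited, MCM10 lies furthest right at 1.19 and TYMS furthest left at -0.43, and the licensing genes all lie right of 0; scaling on the poly-A controls, not drawn, puts MCM10 alone past the threshold on the right.

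Among the 6 genes of helicase activation, 4 rose at 25 µg/mL, with a median log2 difference of 0.79 over all 6. Of these 4, MCM10 alone was called higher under poly-A scaling, and MCM10, GINS3 and GINS4 were under hybridization scaling, where CDC45 (0.26) lost its call. MCM10, which is needed to start the helicase and binds polymerase alpha, had 9.43, 9.41 and 9.46 at 25 µg/mL, against 8.15, 8.32 and 8.26 in medium. This was the largest rise of the 33 genes, 2.28-fold (log2 1.19 ± 0.11 SE, adjusted p = 1.25e-06), and it was also called under both control scalings. Its other 2 probe sets were higher by 0.91 and 0.75, both called. CDC45, the helicase cofactor that joins the ring, had 7.68, 7.92 and 7.80 at 25 µg/mL, against 7.04, 7.16 and 7.13 in medium, a rise of 1.61-fold (log2 0.69, adjusted p = 6.5e-05) with no overlap.

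The 4 subunits of the GINS complex did not all pass the test. GINS3 had 7.33, 7.45 and 7.70 at 25 µg/mL, against 6.31, 6.73 and 6.45 in medium, a rise of 2.00-fold (log2 1.00 ± 0.12 SE, adjusted p = 1.67e-05). GINS4 had 6.607, 7.231 and 7.029 at 25 µg/mL, against 6.004, 6.080 and 6.090 in medium, a rise of 1.86-fold (log2 0.90 ± 0.17 SE, adjusted p = 0.00089). For both genes the groups did not overlap, and the treated arrays were more spread than for MCM10. GINS1 had 9.93, 9.99 and 10.06 at 25 µg/mL, against 9.70, 9.91 and 9.90 in medium (log2 difference 0.16, 95% interval -0.083 to 0.40). GINS2 had 9.62, 9.68 and 9.84 at 25 µg/mL, against 9.43, 9.61 and 9.67 in medium (log2 difference 0.14, 95% interval -0.14 to 0.42). Neither passed the test, and the GINS2 groups overlapped, although 1 of 2 dimmer probe sets of GINS2 was called higher (0.42) and the average of its 3 probe sets was called too (0.27). Scaling on the poly-A controls turned GINS1 (-0.46) and GINS2 (-0.47), and so did scaling on the hybridization controls (-0.27 for GINS1 and -0.28 for GINS2). GINS2 and GINS3 both carried the E2F letters in the stretches shown above.

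**Figure D3:**
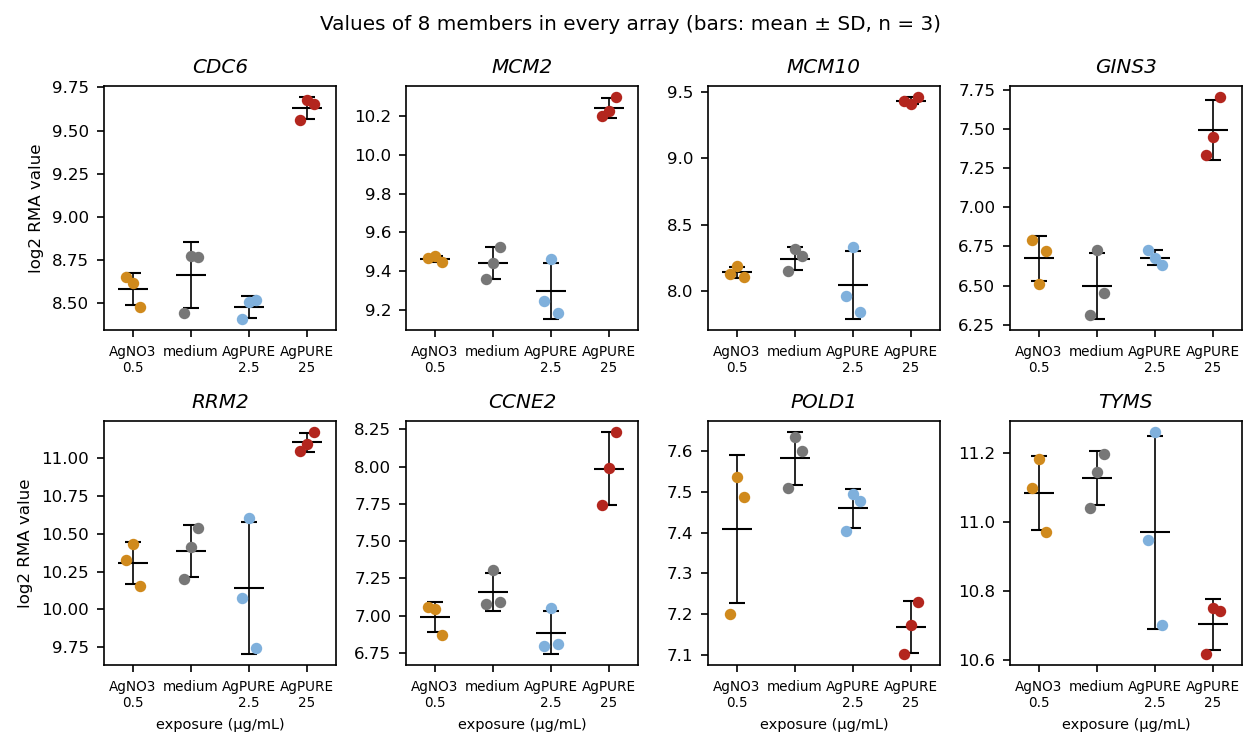
Log2 RMA value (y axis, a separate range per gene) of 8 members in each of the 3 arrays of the 4 exposure groups (x axis); points are arrays and bars the mean ± SD. The points at 25 µg/mL lie above all medium points for CDC6, MCM2, MCM10, GINS3, RRM2 and CCNE2 and below them for POLD1 and TYMS, as deposited. Scaling on the control probe sets, not drawn, turned the direction of none of these 8, and left MCM10, POLD1 and TYMS past the threshold under both scalings. Both scalings move every difference from medium downward at 25 µg/mL, so POLD1 and TYMS had to stay below 0.

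The 3 polymerase genes all changed at 25 µg/mL, and not in 1 direction. POLA1, the catalytic subunit of the primase-bound polymerase alpha, had 7.68, 7.66 and 7.50 at 25 µg/mL, against 6.91, 7.16 and 6.90 in medium (1.55-fold higher, log2 0.63, adjusted p = 0.000246). POLE, the catalytic subunit of the leading-strand polymerase, had 7.22, 7.34 and 7.29 at 25 µg/mL, against 6.86, 7.05 and 6.92 in medium (1.27-fold higher, log2 0.34, adjusted p = 0.0379). POLD1, the catalytic subunit of polymerase delta, which makes the lagging strand, had 7.10, 7.17 and 7.23 at 25 µg/mL, against 7.51, 7.64 and 7.60 in medium. The POLD1 arrays at 25 µg/mL were all below the medium arrays (1.33-fold lower, log2 -0.41 ± 0.094 SE, adjusted p = 0.00297), and it was called lower in all 23 alternatives that tested it. The control scalings among these 23 move every difference downward and are no check on a fall. The POLE call was lost without any 1 of the arrays at 25 µg/mL (0.37 without replicate 1, 0.31 without replicate 2 and 0.34 without replicate 3), without medium replicate 1 (0.30) or 3 (0.33), and without moderation of the variances (0.34), which left 21 members higher. Under poly-A scaling POLE turned to -0.27 and POLA1 (0.015) lost its call, and under hybridization scaling POLE turned to -0.087 and POLA1 (0.20) lost its call.

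Of the 5 members of the clamp and its loader, 1 passed the test. RFC1, another loader gene, is not a member but stands among the other replication factors below. It was called lower as deposited (log2 -0.28, adjusted p = 0.0329). RFC3, a small subunit of the loader, had 10.53, 10.40 and 10.42 at 25 µg/mL, against 9.93, 9.85 and 9.91 in medium (1.47-fold higher, log2 0.55 ± 0.075 SE, adjusted p = 4.72e-05). Its other 2 probe sets were also called higher. PCNA, the sliding clamp, had 10.88, 11.04 and 11.14 at 25 µg/mL, against 10.83, 10.81 and 11.00 in medium. The PCNA groups overlapped, and the 95% interval of the log2 difference of 0.14 was -0.090 to 0.37. The loader genes RFC2 (0.13) and RFC5 (0.09) did not pass the test, and RFC5 overlapped between the groups. Under poly-A scaling RFC3 (-0.059), PCNA (-0.47), RFC2 (-0.48) and RFC5 (-0.52, called lower) turned, and under hybridization scaling PCNA (-0.29), RFC2 (-0.29) and RFC5 (-0.33) turned while RFC3 (0.13) lost its call. RFC4 had 10.45, 10.41 and 10.35 at 25 µg/mL, against 10.61, 10.57 and 10.68 in medium. All its treated arrays were below the medium arrays, but the log2 difference of -0.22 missed the threshold (adjusted p = 0.0513). RFC4 passed without silver nitrate replicate 1 or 2 (both -0.22) and in 7 other alternatives. Among these were the poly-A (-0.83) and hybridization (-0.64) scalings, which move every difference downward.

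FEN1, the flap nuclease that trims Okazaki fragments, had 10.09, 10.11 and 10.19 at 25 µg/mL, against 9.44, 9.68 and 9.73 in medium (1.43-fold higher, log2 0.51, adjusted p = 0.00548). LIG1, the ligase that seals them, had 6.96, 6.84 and 6.92 at 25 µg/mL, against 6.64, 6.99 and 6.81 in medium. The LIG1 groups overlapped, and its difference of 0.09 did not pass the test. LIG1 turned and was called lower under poly-A (-0.52) and hybridization scaling (-0.33), while FEN1 turned to -0.10 under the poly-A one and lost its call under the hybridization one (0.087).

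The 3 genes of nucleotide supply changed in both directions. RRM2, the small subunit of ribonucleotide reductase that is made in S phase, had 11.05, 11.09 and 11.17 at 25 µg/mL, against 10.20, 10.41 and 10.54 in medium. Its groups did not overlap (1.65-fold higher, log2 0.72 ± 0.17 SE, adjusted p = 0.0033), and its second probe set differed by 1.28. RRM1, the large subunit of the same enzyme, had 11.22, 11.32 and 11.37 at 25 µg/mL, against 10.99, 11.09 and 11.07 in medium (1.19-fold higher, log2 0.26, adjusted p = 0.0377). TYMS, thymidylate synthase, had 10.62, 10.75 and 10.74 at 25 µg/mL, against 11.04, 11.15 and 11.20 in medium. All TYMS arrays at 25 µg/mL were below the medium arrays (1.34-fold lower, log2 -0.43 ± 0.12 SE, adjusted p = 0.0122), and both of its dimmer probe sets were below 0 without passing the test. After median centring TYMS differed by -0.32 and was not called. The RRM1 call was lost without medium replicate 1 (0.22), 2 (0.28) or 3 (0.26) and without replicate 2 (0.25) or 3 (0.22) at 25 µg/mL, and with its probe sets averaged (0.21). RRM1 turned under both control scalings (-0.36 with poly-A and -0.17 with hybridization controls), and RRM2 lost its call under both (0.11 and 0.29). TYMS was called lower under both (-1.04 and -0.85), but both move every difference downward and are no check on a fall.

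Of the 4 genes of G1/S control, 3 rose at 25 µg/mL. CCNE2, a cyclin E that activates CDK2, had 7.74, 7.99 and 8.23 at 25 µg/mL, against 7.08, 7.31 and 7.09 in medium (1.78-fold higher, log2 0.83 ± 0.12 SE, adjusted p = 9.25e-05). CCNE1, the other cyclin E, had 8.60, 8.61 and 8.47 at 25 µg/mL, against 7.99, 7.98 and 8.27 in medium (1.40-fold higher, log2 0.48, adjusted p = 0.00271). Neither cyclin overlapped between the groups. E2F2, an activating E2F factor, had 6.80, 6.66 and 6.73 at 25 µg/mL, against 6.01, 6.25 and 6.23 in medium (1.48-fold higher, log2 0.56, adjusted p = 0.00167). E2F1, another activating E2F factor, had 6.97, 6.74 and 7.10 at 25 µg/mL, against 6.68, 6.91 and 6.77 in medium. The E2F1 groups overlapped, and its difference of 0.15 did not pass the test. UHRF1, which guides DNMT1 to newly copied DNA, had 9.39, 9.56 and 9.58 at 25 µg/mL, against 8.83, 9.04 and 9.10 in medium, a rise of 1.44-fold (log2 0.52, adjusted p = 0.00766) without overlap. Under poly-A scaling none of these 5 genes was called higher, and CCNE1 (-0.13), E2F2 (-0.049), E2F1 (-0.47) and UHRF1 (-0.091) turned. Under hybridization scaling CCNE2 alone was called higher, and E2F1 turned (-0.28). CCNE1 and E2F2 had dimmer probe sets with differences just below 0 (-0.02 for CCNE1, -0.02 and -0.03 for E2F2), none of them called, and averaged over its probe sets E2F2 differed by 0.17 and was not called.

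The members were measured by 65 probe sets in all, of which 37 were called higher, 2 lower and 26 neither at 25 µg/mL against medium when every probe set was tested on its own. Over all 41097 probe sets with 1 symbol, 13% were called higher and 15.9% lower in the same fit. Of the 21 members with several probe sets, 18 had all of them on the same side of 0. The other 3, CCNE1, CDT1 and E2F2, had no called probe set against the direction of the reported one.

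At 2.5 µg/mL no gene of the 33 passed the test against medium, as no gene of all 19775 did (0% called; 4.55% at an unadjusted p under 0.05). Of the members, 30 were below 0 and 3 above it, with a median of -0.12, while 49.4% of all genes were below 0. That median was 0.010 under poly-A scaling, above 0, and -0.21 under hybridization scaling. At an unadjusted p under 0.05 there were 3 members: RFC3 (-0.19) and CCNE2 (-0.27) below 0, and E2F2 (0.26) above it. All 3 arrays at 2.5 µg/mL lay below all medium arrays for CDT1, POLD1, RFC3 and CCNE2 (4.51% of all genes did). CDT1 had 7.48, 7.55 and 7.55 at 2.5 µg/mL, against 7.61, 7.67 and 7.75 in medium. RFC3 had 9.71, 9.74 and 9.69 at 2.5 µg/mL, against 9.93, 9.85 and 9.91 in medium. The 3 arrays at 2.5 µg/mL were unlike each other for most members: the members' median deviation from the medium mean was -0.18 in replicate 1, 0.08 in replicate 2 and -0.24 in replicate 3. This was not particular to the members, as the median of the 30 G2/M and mitosis genes was -0.10, 0.11 and -0.11 in the same arrays. In replicates 1, 2 and 3, 3, 24 and 2 of the 33 members lay above their medium mean, against 51%, 50.8% and 50.8% of all genes. RRM2 showed this spread most plainly, with 10.07, 10.60 and 9.74 at 2.5 µg/mL.

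With silver nitrate at 0.5 µg/mL, no member passed the test against medium either (0% of all genes called; 6.24% at an unadjusted p under 0.05, and none of the members). The members' median was -0.044, and 25 of 33 were below 0, against 48.8% of all genes. Under poly-A scaling that median turned to 0.13, and under hybridization scaling it was -0.034. CDC6 had 8.65, 8.62 and 8.48 with silver nitrate, against 8.45, 8.77 and 8.77 in medium. MCM10 had 8.13, 8.19 and 8.10 with silver nitrate, against 8.15, 8.32 and 8.26 in medium. These groups overlapped for both genes. The members' median deviations in the 3 silver nitrate arrays were -0.09, 0.05 and -0.07, close to the -0.09, 0.04 and 0.06 of the medium arrays. Those of the G2/M and mitosis list were -0.13, 0.13 and -0.02 with silver nitrate. Between 2.5 µg/mL of nanoparticles and silver nitrate no member and no other gene passed the test (0% called).

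**Figure D4:**
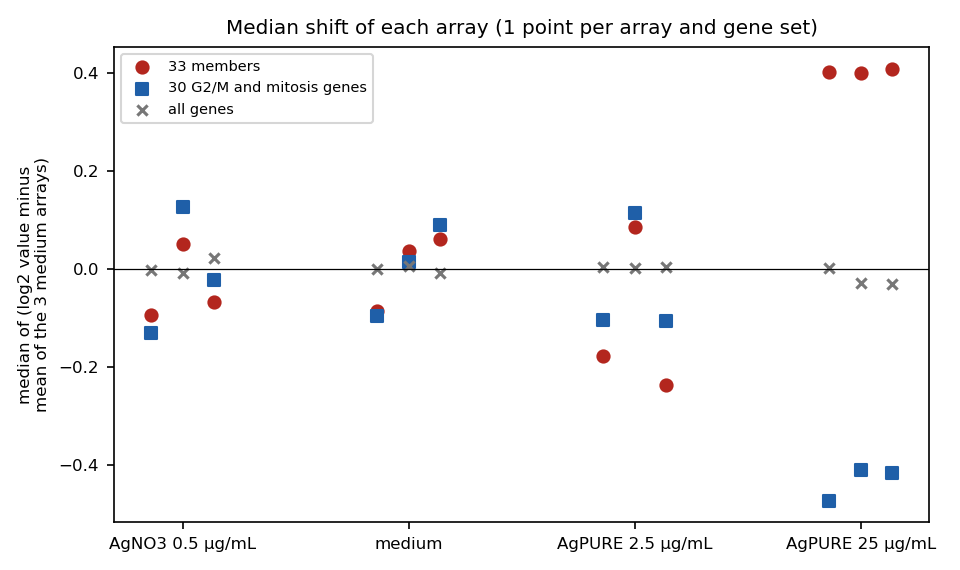
Median over the 33 members (circles), over 30 G2/M and mitosis genes (squares) and over all genes (crosses) of the log2 value minus its mean in the 3 medium arrays (y axis), for each array of the 4 groups (x axis). As deposited, the members lie at 0.40 to 0.41 and the G2/M genes at -0.47 to -0.41 in the arrays at 25 µg/mL; under control scaling, not drawn, the members' group median turns to -0.19 (poly-A) or -0.0054 (hybridization).

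The same arrays at 25 µg/mL were also set against each of the other exposures. Against 2.5 µg/mL, 23 members were higher (13.7% of all genes) and 1 was lower (20.3% of all genes), with a median log2 difference of 0.53. MCM10 (1.39), CDC6 (1.15) and CCNE2 (1.10) had the largest differences, POLD1 (-0.29) was the lower gene, and E2F1 (0.31, adjusted p = 0.0313) passed the test, while E2F2 (0.31, adjusted p = 0.0572) did not. Against silver nitrate, 23 members were higher (13.7% of all genes) and 1, TYMS (-0.38), was lower (18.6% of all genes), with a median of 0.41. MCM10 (1.29), CDC6 (1.05) and GINS4 (1.03) had the largest differences there. Under poly-A scaling 1 member was higher and 6 were lower than at 2.5 µg/mL, and 1 was higher and 12 were lower than with silver nitrate. Under hybridization scaling 11 were higher and 3 lower than at 2.5 µg/mL, and 6 were higher and 4 lower than with silver nitrate. The shares of all genes under these scalings are not given here, so the scaled counts cannot be set against them. These comparisons use the same 3 arrays at 25 µg/mL, and the silver doses of the particle and ion groups differ.

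The wider pathway was read from 5 lists of related genes, each at 25 µg/mL against medium and beside the 14.1% higher and 19.3% lower of all genes. Of 41 other replication factors, 14 rose and 6 fell, with a median of 0.11 as deposited that turned to -0.51 (poly-A) or -0.32 (hybridization) under control scaling. ORC6, another subunit of the origin complex, had 10.18, 10.23 and 10.21 at 25 µg/mL, against 9.28, 9.23 and 9.37 in medium, a rise of 1.89-fold (log2 0.91 ± 0.12 SE, adjusted p = 2.47e-05). TIPIN, a fork protection factor, rose by 0.69 and MCM8, a helicase of recombination repair, by 0.53 on the log2 scale, while POLD4, a small subunit of polymerase delta, changed by -0.61. POLD4 thus lay on the same side of 0 as POLD1, the catalytic subunit of that polymerase. Its other listed subunits lay above 0: POLD2 rose by 0.27 (adjusted p = 0.0191), and POLD3 (0.18) did not pass the test. Of the listed partners of POLA1 in polymerase alpha and primase, POLA2 (-0.27) and PRIM1 (-0.27) fell, and PRIM2 (0.00069) did not pass the test. Of those of POLE, POLE3 (0.43) rose, POLE4 (-0.38) fell and POLE2 (0.14) did not pass the test.

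Of 28 measured genes of G1 control, 12 rose and 5 fell, with a median of 0.20 as deposited that turned to -0.41 (poly-A) or -0.22 (hybridization). Called inhibitors of the cyclins' kinases were found on both sides. The called cyclins rose, and the cyclin CCND2 (-0.25) did not pass the test. CDK2, the kinase that cyclin E activates, was among the 5 that fell (log2 -0.52, adjusted p = 0.00124). CCND1, the cyclin that drives CDK4 and CDK6, had 9.86, 10.04 and 9.93 at 25 µg/mL, against 9.12, 9.05 and 8.98 in medium (1.86-fold higher, adjusted p = 5.79e-06), and CCND3, a cyclin of the same family, rose by 0.87 on the log2 scale. CDKN1A, which encodes the kinase inhibitor p21, had 7.67, 7.97 and 7.83 at 25 µg/mL, against 6.67, 6.98 and 6.80 in medium (2.01-fold higher, adjusted p = 1.14e-05). CDKN1B, which encodes the inhibitor p27, had 10.82, 10.64 and 10.59 at 25 µg/mL, against 11.54, 11.48 and 11.54 in medium (1.79-fold lower, adjusted p = 1.23e-05). None of these 3 genes overlapped between the groups. TFDP2, a DNA-binding partner of E2F factors, changed by -0.85, and RB1, which holds E2F factors back, differed by -0.28 without passing the test (adjusted p = 0.0788).

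Of 21 measured genes of other nucleotide supply, 7 rose and 1 fell (median 0.03 as deposited, -0.58 under poly-A and -0.40 under hybridization scaling). CTPS1, the enzyme that makes CTP, had 7.85, 7.84 and 7.83 at 25 µg/mL, against 6.75, 6.96 and 6.76 in medium (2.02-fold higher, adjusted p = 2.08e-06). The purine synthesis genes ADSL (0.45), PPAT (0.38) and GART (0.36) rose as well. Of 12 genes of chromatin replication, 6 rose and 0 fell (median 0.22 as deposited, -0.39 under poly-A and -0.21 under hybridization scaling, which called 0 of them higher). The histone chaperone genes ASF1A (0.55), CHAF1A (0.49) and NASP (0.38), the remodeller HELLS (0.50) and DNMT1 (0.29), the maintenance methyltransferase that UHRF1 guides, were among these 6.

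The G2/M and mitosis list lay on the other side of 0. Of its 30 genes, 0 were higher and 18 fell at 25 µg/mL, with a median of -0.42. Both control scalings move every difference between 25 µg/mL and medium downward. The list median under them (-1.03 and -0.85) thus had to stay below 0 and is no check. Centring each array on its median, with a list median of -0.31, called 2 of the 30 higher and 16 lower. KIF20A, a kinesin of cytokinesis, had 8.56, 8.59 and 8.51 at 25 µg/mL, against 9.70, 9.84 and 10.00 in medium (2.45-fold lower, adjusted p = 3.54e-06). MKI67, the Ki-67 proliferation antigen, had 8.65, 8.62 and 8.50 at 25 µg/mL, against 9.12, 9.35 and 9.27 in medium (1.58-fold lower, adjusted p = 0.0028). Neither gene overlapped between the groups. PTTG1, which encodes securin (-0.94), the mitotic kinase gene AURKA (-0.81), the spindle factor TPX2 (-0.75) and the cyclin CCNA2 (-0.30, adjusted p = 0.0496) also fell. Per array at 25 µg/mL, the G2/M list's median deviation from the medium mean was -0.47, -0.41 and -0.42, while that of the 33 members was 0.40, 0.40 and 0.41. The difference between both lists was not tested. In these bulk samples, fewer cells of a type and less RNA per cell cannot be told apart.

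**Figure D5:**
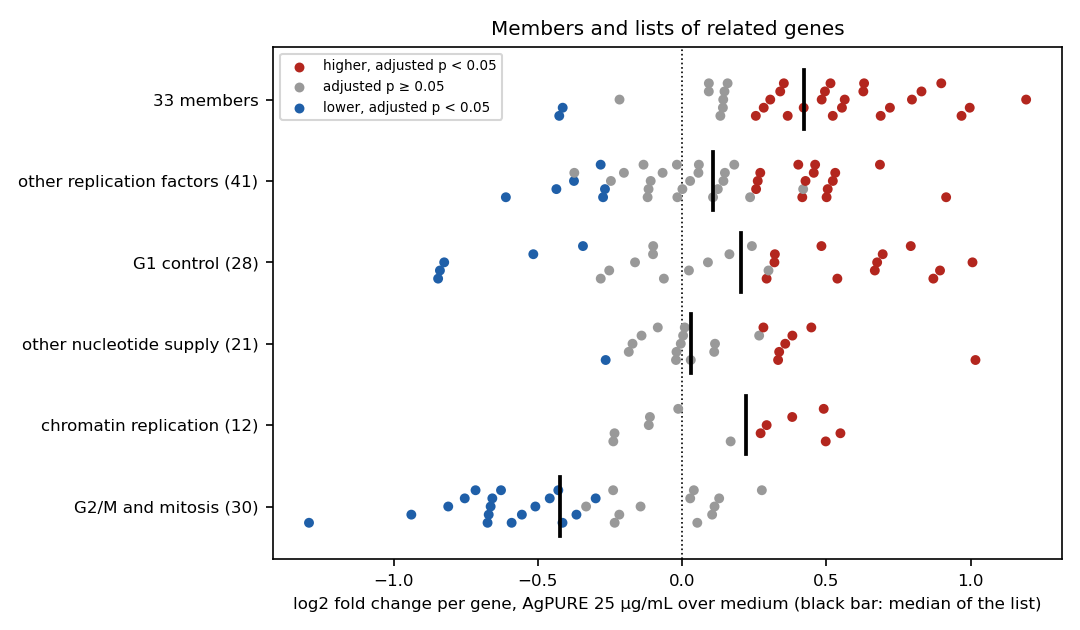
Log2 fold change of each gene at 25 µg/mL AgPURE over medium (x axis, 1 point per gene; vertical spread within a row is only for legibility), for the 33 members and 5 lists of related genes (rows); red is higher, blue lower and grey not past an adjusted p of 0.05, and black bars are list medians. As deposited, the members' median is 0.42 and that of the G2/M list -0.42; scaling on the poly-A controls, not drawn, puts all 6 medians below 0, the members highest at -0.19 and the G2/M list lowest at -1.03.

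Markers of the differentiated state and of other cell types moved at 25 µg/mL as well, and their part in the members' differences was not tested. Of 12 enterocyte markers, 0 rose and 7 fell, and the mean level over the list was 6.18 to 6.20 at 25 µg/mL, against 6.55 to 6.72 in medium. With silver nitrate it was 6.41 to 6.77 and at 2.5 µg/mL 6.48 to 6.81. FABP1, a fatty acid binding protein, changed by -1.59 and ALPI, the intestinal alkaline phosphatase, by -1.38. Of 5 fibroblast markers, 1 rose and 2 fell, with a mean level of 5.45 to 5.55 at 25 µg/mL, against 6.03 to 6.12 in medium. Of 4 measured leukocyte markers, 0 rose and 2 fell (mean level 5.20 to 5.64 at 25 µg/mL, against 5.85 to 5.96 in medium), and the defining gene PTPRC read 3.96 at 25 µg/mL and 3.99 in medium, below the median of all probe sets. The 2 that fell, LYZ (8.95, 9.22 and 8.81 in medium) and CD14 (5.72, 6.21 and 5.86), lay above that median in all 3 medium arrays. Of the fibroblast markers, COL1A1 (9.03, 9.13 and 9.45 in medium) and COL3A1 (7.35, 7.29 and 7.17) lay above it and 1 lay below it in all 3. Of 4 endothelial markers, 1 rose (CDH5) and 0 fell (mean level 4.74 to 4.90 at 25 µg/mL, against 4.50 to 4.64 in medium). Values of RMA do not reach 0, so no marker can be called absent from them.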

How the data were processed

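RNA of 12 samples was measured on 12 3′ expression arrays. The values the authors deposited are on a log2 scale, 1 per probe set and array. The submitters' processing notes name RMA and Partek, with versions not given in the sources used here, and the table has no detection calls. Column means were equal at 5.57, so a change in total mRNA per cell does not show.

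Of 54675 probe sets, 62 were controls, 41097 had 1 gene symbol in the platform annotation and 1801 had several. For each of 19775 genes, the 1-symbol probe set that was brightest on average over the arrays stood for the gene. limma 3.58.1 (R 4.3.3) fitted 1 linear model over the 4 groups of 3 arrays with 8 residual and 6.25 prior degrees of freedom and 6 two-sided contrasts, with Benjamini-Hochberg adjustment over all genes (threshold 0.05). The fit was tested on simulated data. Errors are standard errors from limma, and precision is limited by the number of arrays. No 2 arrays held identical values.

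The members, the lists of related genes and the cell type markers were chosen with earlier results of these data known. All members were named, with up to 4 genes of each related list with the largest changes past the threshold, plus CDKN1A, CDKN1B, CCND1, RB1, DNMT1, CCNA2 and MKI67. Some other listed genes were named as partners or relatives of these, such as RFC1, POLD2 and CDK2. Listed genes without a 1-symbol probe set here, such as CDKN2C, were not used. Alternatives were quantile normalization, median centring, scaling on the poly-A or hybridization controls, leaving out dim genes, averaging the probe sets of each gene, testing each probe set, fits with an intensity trend, with array weights or without moderation, fits of only the groups compared, an adjusted p under 0.01, and leaving out each array. Promoter windows are RefSeq's, build GRCh38.p14. Figures were drawn with matplotlib 3.10.9.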

Additional observations from a re-analysis of the deposited data

Results flagged for a closer look

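Signal outside the gene measurements was higher at 25 µg/mL than in medium. The poly-A control probe sets averaged 6.21, 5.56 and 6.31 at 25 µg/mL, against 5.31, 5.54 and 5.39 in medium, a difference of 0.61 that came mainly from replicates 1 and 3. The hybridization control probe sets averaged 10.97, 10.89 and 11.08 at 25 µg/mL, against 10.57, 10.43 and 10.66 in medium, a difference of 0.43. Their part in the members' differences was not tested beyond the scalings given here. With 3 arrays a group, no test for a single outlying array was run.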

How the results depend on the processing

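The members' median difference between 25 µg/mL and medium, 0.42 as reported, was 0.52 after quantile normalization, 0.53 after median centring, 0.28 with probe sets averaged per gene, 0.37 over every probe set, 0.40 with array weights and 0.34 to 0.51 when 1 array was left out. Under poly-A scaling it turned to -0.19 and under hybridization scaling to -0.0054; the cause was not tested.

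Under poly-A scaling 14260 genes were called at 25 µg/mL against medium, with 1 member higher and 5 lower. Against 2.5 µg/mL it left 1 member higher and 6 lower, against silver nitrate 1 higher and 12 lower, and the members' median against medium was 0.010 at 2.5 µg/mL and 0.13 with silver nitrate, both turned. The shares of all genes against 2.5 µg/mL and silver nitrate under control scaling are not given here. Under hybridization scaling 13343 genes were called at 25 µg/mL, with 6 members higher and 4 lower, 11 higher and 3 lower against 2.5 µg/mL, and 6 higher and 4 lower against silver nitrate. It also called 8 genes at 2.5 µg/mL and 1 gene with silver nitrate against medium. Testing every probe set called 11861 probe sets at 25 µg/mL against medium, 37 of them of members and higher, with 40 higher and 2 lower against 2.5 µg/mL and 41 higher against silver nitrate.

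Under poly-A scaling 20 members turned at 25 µg/mL against medium: ORC1 (-0.19), CDT1 (-0.12), MCM3 (-0.26), MCM5 (-0.25), MCM6 (-0.31), MCM7 (-0.33), POLE (-0.27), RFC3 (-0.059), RFC5 (-0.52), FEN1 (-0.10), LIG1 (-0.52), RRM1 (-0.36), CCNE1 (-0.13), E2F2 (-0.049), UHRF1 (-0.091), GINS1 (-0.46), GINS2 (-0.47), PCNA (-0.47), RFC2 (-0.48) and E2F1 (-0.47). Under hybridization scaling 14 turned: ORC1 (-0.0054), MCM3 (-0.074), MCM5 (-0.061), MCM6 (-0.12), MCM7 (-0.14), POLE (-0.087), LIG1 (-0.33), RRM1 (-0.17), GINS1 (-0.27), GINS2 (-0.28), PCNA (-0.29), RFC2 (-0.29), RFC5 (-0.33) and E2F1 (-0.28). Of those that turned, RFC5 and LIG1 under poly-A scaling and LIG1 under hybridization scaling were called lower.

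The count of lower members was small and moved with most choices. At 25 µg/mL against medium it was 1 after median centring and 1 at an adjusted p under 0.01. It was 3 without dim genes, with the mean of probe sets, with an intensity trend, with array weights or without moderation. Against 2.5 µg/mL it was 0 after quantile normalization, median centring or at an adjusted p under 0.01, 2 with the mean of probe sets and 3 with an intensity trend, and it ranged from 0 to 1 when 1 array was left out. Against silver nitrate it was 0 after median centring or at an adjusted p under 0.01, 2 without dim genes, with an intensity trend or with array weights, and from 0 to 1 when 1 array was left out. The intensity trend called 8 genes at 2.5 µg/mL and 2 with silver nitrate against medium, and the mean of probe sets and every probe set each called 1 with silver nitrate, where leaving out 1 array gave 0 to 1.

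Limits are few arrays, no detection calls and equal column means, which hide a change in total mRNA. No paired analysis was possible because the labels give no replicate numbers shared between groups.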
